A study of Mus musculus with 12 samples.

Results

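Genes of the unfolded protein, integrated stress and heat shock responses were followed in L929 cells given a plasmid, an inhibitor of TBK1, or both. The set was a fixed list of 43 mouse symbols in 3 branches, matched through the Entrez gene identifiers of the deposited table: 16 targets and effectors of ATF4, 15 chaperones and quality control factors of the endoplasmic reticulum (ER), and 12 heat shock genes. Of these, 42 were among the 17571 genes of the table, and the expression of Hsph1 was not analysed here. After a filter on low values (3 or more libraries with an FPKM of 1 or higher), 39 members were tested among 10412 genes, namely 15 of the ATF4 branch, all 15 of the ER chaperone branch and 9 of the heat shock branch. Atf3, Hspa1a and Hspb1 fell below the filter.

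L929 is an established mouse fibroblast line from subcutaneous connective tissue of strain C3H/An. The 4 groups were mock (vehicle DMSO only), pEGFP-N1 (DMSO and the plasmid), BX795 (the inhibitor at 0.5 μM) and BX795 plus pEGFP-N1, each with 3 libraries of total RNA. By the labels, inhibitor or vehicle was given for 1 h and the plasmid for 6 h after that. pEGFP-N1 expresses EGFP in mammalian cells, the study delivered plasmids to cell lines with a cationic lipid reagent, and no group with that reagent but no plasmid was analysed here, so plasmid and reagent cannot be told apart. BX795 blocks TBK1, which phosphorylates IRF3 once cGAS has sensed DNA. Levels are given as FPKM, fragment counts scaled by gene length and by the size of the library, which can be compared between genes.

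Cells answer misfolded protein and nutrient stress along several routes. In the integrated stress response, kinases such as PERK, GCN2 and PKR phosphorylate eIF2α, which lowers general translation and raises translation of the transcription factor ATF4, whose targets make and import amino acids and, when stress lasts, favour cell death. In the unfolded protein response of the ER, ATF6 and the XBP1 made after splicing by IRE1 switch on chaperones and the machinery that sends misfolded proteins out for degradation. In the cytosol, HSF1 trimers bind heat shock elements and switch on chaperones of the HSP70, HSP90 and HSP40 families. Fibroblasts secrete collagen and matrix protein, and the levels of the ER members in this fibroblast line are given below.

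Before the members were compared, the libraries were checked against their labels. Isg15, an interferon-stimulated gene, had an FPKM of 152, 1.38 and 129 in the pEGFP-N1 libraries (replicates 1, 2 and 3) and of 144, 3.39 and 5.15 in the BX795 plus pEGFP-N1 libraries, against 1.46, 2.22 and 2.61 in mock and 3.76, 1.90 and 1.26 with BX795. Replicate 2 of pEGFP-N1 and replicate 1 of BX795 plus pEGFP-N1 thus went against the other libraries of their labels. With the members left out, the library labelled pEGFP-N1 replicate 2 correlated best with BX795 replicate 2 (r = 0.743 over 10373 genes, on deviations from each gene's mean) and that labelled BX795 plus pEGFP-N1 replicate 1 with pEGFP-N1 replicate 3 (r = 0.844). BX795 plus pEGFP-N1 replicate 3 stood apart from all others: its highest r was 0.184, and its FPKM summed to 467348, against 495030 to 513761 in the other 11. BX795 replicate 1 correlated best with BX795 plus pEGFP-N1 replicate 2 (r = 0.559), and at most at 0.308 within its own group. The highest r of BX795 plus pEGFP-N1 replicate 2 with its own group was 0.0401. Branch results below are therefore given with all libraries as labelled, and in part also with libraries left out. For single genes in BX795 against mock, the second fit given is that of the 6 libraries compared. Not every call that moves is printed. Of the fibroblast markers, Vim, S100a4, Sparc, Pdgfrb and Col1a1 were expressed in every library, with Vim at 1576 to 2101, whereas Thy1 did not exceed 0.13. The 5 epithelial and 4 endothelial markers were all below 1 in every library, and among 6 leukocyte markers Cd68 lay at 111 to 138 and 4 were below 1. The table keeps no read total, so the depth behind these values is unknown.

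RefSeq promoter windows (GRCm38.p6, 250 bases before to 50 bases after each annotated start) matched 38 of the 43 members and are shown because the branches are defined by the factors that bind there. The ER stress response element, the site of ATF6 with NF-Y, was searched as CCAAT, 9 bases of any kind and CCACG on either strand. It was found in 8 of 14 windows of the ER chaperone branch (57.1%), in 0 of 15 of the ATF4 branch and 0 of 9 of the heat shock branch, against 0.137% of all 27025 genes with a window. Hspa5 encodes BiP, the HSP70 chaperone of the ER lumen, and its gene spans chr2:34771970-34777547 in the GENCODE annotation of GRCm38, so the RefSeq window overlaps the 5′ end annotated there. The whole window of Hspa5 is shown, with the CCAAT and CCACG parts of its element in capitals.
Hspa5, chr2:34771840-34772139, plus strand: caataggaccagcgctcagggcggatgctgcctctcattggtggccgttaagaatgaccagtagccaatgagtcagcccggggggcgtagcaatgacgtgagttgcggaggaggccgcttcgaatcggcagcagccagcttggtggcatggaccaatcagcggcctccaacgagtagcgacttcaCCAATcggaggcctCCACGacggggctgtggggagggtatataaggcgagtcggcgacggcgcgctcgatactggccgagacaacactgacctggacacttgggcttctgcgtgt

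The same element, with 8 bases on each side, is shown for the other 7 members that hold it. Capitals mark its 2 conserved parts, which read CGTGG and ATTGG where the element lies on the opposite strand. The elements began between 44 and 212 bases before the annotated start, and Hsp90b1 held 2.
Hsp90b1, element at chr10:86705638-86705656, minus strand: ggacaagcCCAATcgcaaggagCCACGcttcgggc
Hsp90b1, element at chr10:86705533-86705551, minus strand: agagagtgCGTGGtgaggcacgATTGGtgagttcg
Pdia6, element at chr12:17266491-17266509, plus strand: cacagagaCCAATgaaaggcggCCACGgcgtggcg
Calr, element at chr8:84847075-84847093, minus strand: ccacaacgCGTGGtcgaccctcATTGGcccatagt
Canx, element at chr11:50325800-50325818, minus strand: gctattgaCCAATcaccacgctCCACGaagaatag
Dnajc3, element at chr14:118937827-118937845, plus strand: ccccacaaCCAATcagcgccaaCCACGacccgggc
Syvn1, element at chr19:6046532-6046550, plus strand: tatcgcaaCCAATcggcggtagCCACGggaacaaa
Creld2, element at chr15:88819520-88819538, plus strand: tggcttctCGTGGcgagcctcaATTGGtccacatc

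The C/EBP-ATF element bound by ATF4 dimers was searched as TGATGNAA on either strand. It was found in 6 of 15 windows of the ATF4 branch (40%), in 1 of 14 of the ER chaperone branch (7.14%, Herpud1) and in 0 of 9 of the heat shock branch, against 4.51% of all genes. The whole window of Chac1, which encodes a glutathione-degrading enzyme, is shown first. The short lines give the elements of the other carriers with 8 bases on each side, with the fixed bases in capitals, and that of Trib3 lies just past the annotated start.
Chac1, chr2:119350992-119351291, plus strand: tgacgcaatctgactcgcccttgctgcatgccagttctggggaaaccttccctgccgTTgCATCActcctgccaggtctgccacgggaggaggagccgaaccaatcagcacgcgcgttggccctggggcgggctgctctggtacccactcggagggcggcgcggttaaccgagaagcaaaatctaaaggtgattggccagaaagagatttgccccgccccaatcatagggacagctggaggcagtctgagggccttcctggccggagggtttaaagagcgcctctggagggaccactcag
Slc7a11, element at chr3:50443672-50443679, minus strand: catgtggcTGATGcAAacctggag
Slc7a11, element at chr3:50443653-50443660, minus strand: tggagaatTTgCATCAtcatgcag
Trib3, element at chr2:152344039-152344046, minus strand: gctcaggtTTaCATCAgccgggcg
Asns, element at chr6:7693225-7693232, minus strand: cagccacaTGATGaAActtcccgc
Atf3, element at chr1:191183436-191183443, minus strand: tctcgcacTTgCATCAccaagtcc
Vldlr, element at chr19:27216820-27216827, plus strand: agcaatagTTgCATCAgcgctcct
Herpud1, element at chr8:94386317-94386324, plus strand: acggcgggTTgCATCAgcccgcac

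Heat shock elements were searched as GAA and TTC units that alternate 2 bases apart, on both strands. With 3 units they were found in 3 of 9 windows of the heat shock branch (33.3%; Hspd1, Hspe1 and Hsph1) and in none of the 15 and 14 windows of the other branches, against 0.662% of all genes. With 2 units the counts were 8 of 9, 2 of 15 and 0 of 14, against 17% of all genes. Hspd1 and Hspe1 encode the mitochondrial chaperonin HSP60 and its partner HSP10 and lie head to head on chromosome 1, so that their lines read the same element from opposite strands. The elements of Hspa1a and Hspa1b, neighbouring genes for inducible HSP70, were identical over the stretch shown. Capitals mark the units, of which Hspd1 and Hspe1 hold 4 in a row, read as 2 overlapping elements of 3.
Hspe1, elements at chr1:55088059-55088076, plus strand: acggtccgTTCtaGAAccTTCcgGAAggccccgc
Hspd1, elements at chr1:55088059-55088076, minus strand: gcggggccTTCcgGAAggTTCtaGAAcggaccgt
Hspa1a, element at chr17:34972253-34972260, minus strand: aactgctgGAAgaTTCctggcccc
Hspa1b, element at chr17:34959335-34959342, minus strand: aactgctgGAAgaTTCctggcccc

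The members differed widely in level. Among tested members the mock mean ran from 15.9 (Edem1) to 1486 FPKM (Hspa5) in the ER chaperone branch with a median of 168, from 2.197 (Slc7a11) to 459.8 (Atf4) in the ATF4 branch with a median of 56.0, and from 3.24 (Hspa1b) to 1822 (Hspa8) in the heat shock branch with a median of 294. The plot of all tested members shows each library as a deviation from the mock mean.

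**Figure D1:**
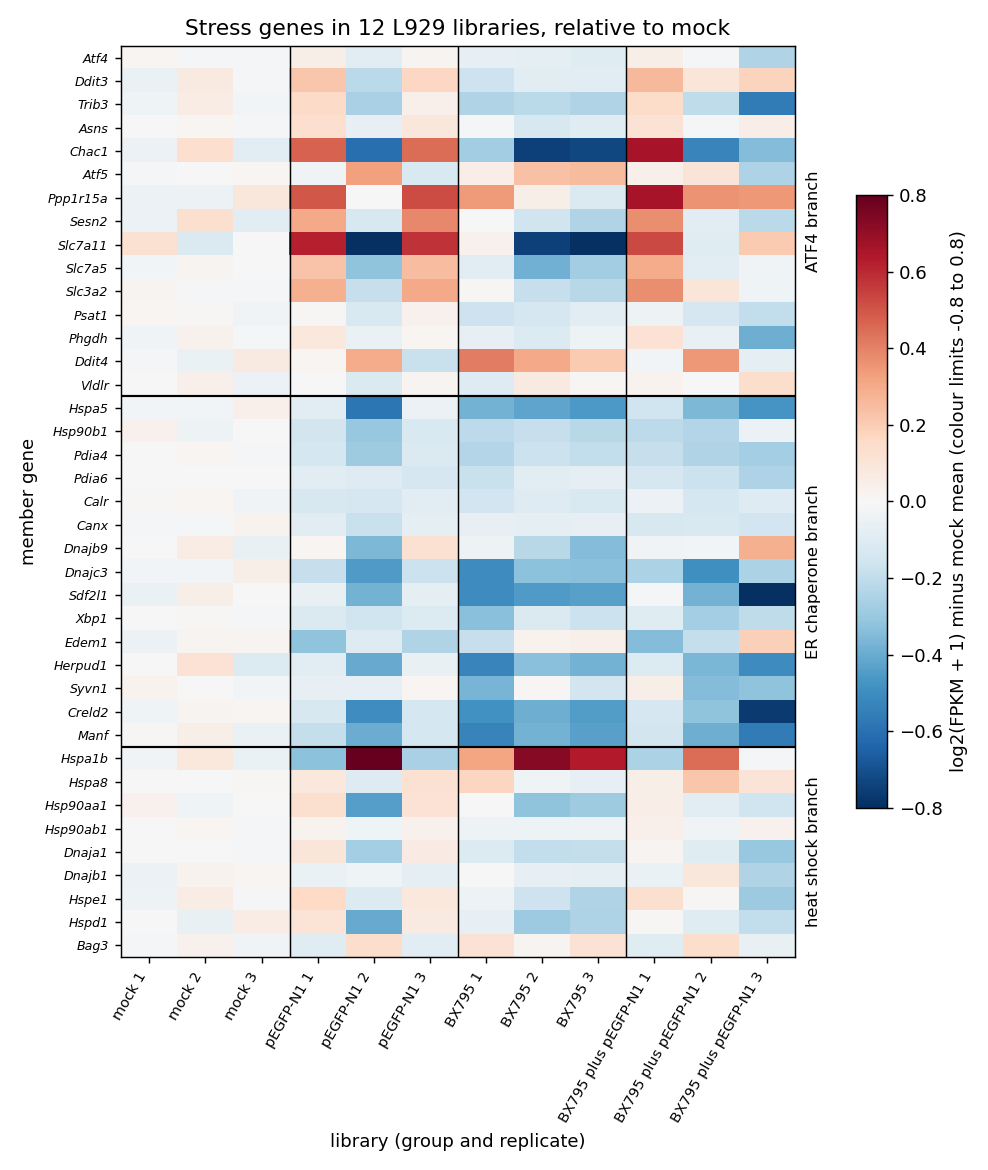
Heat map of the 39 tested members (rows, by branch) in the 12 libraries (columns, by group and replicate), coloured by log2(FPKM + 1) minus the mock mean of that gene, with colours capped at the ends of the scale. The ER chaperone branch is below mock in most treated libraries, while the ATF4 branch is above mock in pEGFP-N1 replicates 1 and 3 and BX795 plus pEGFP-N1 replicate 1 and mostly below it in pEGFP-N1 replicate 2 and the BX795 libraries.

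BX795 alone was compared with mock to ask what the inhibitor does without plasmid. All 15 members of the ER chaperone branch had a lower mean with BX795 (43.1% of all tested genes did), by log2 differences from -0.46 (Sdf2l1) to -0.04 (Edem1) and a median of -0.20, against a median of 0.03 over all tested genes. In 12 of the 15 the 3 BX795 libraries lay below the 3 mock libraries, which held for 16.2% of all tested genes. In the ATF4 branch 12 of 15 means were lower, with a median of -0.11, and 7 members lay wholly below mock and 2 wholly above it, which held for 23.6% of all tested genes. In the heat shock branch 6 of 9 means were lower, with a median of -0.05, and 3 members lay wholly below mock and 1 wholly above. In limma with all 12 libraries, 0 of the 39 members passed an adjusted p of 0.05, as did 0.0672% of all tested genes. At an unadjusted p under 0.05, 11 members of the ER chaperone branch were lower (5.4% of all tested genes were) and 1 of the ATF4 branch was higher (8.45% were). With 1 library left out the ER count was 7 to 11, the lowest without BX795 replicate 1 (5.76%), the count of higher ATF4 members was 0 or 1, and that of lower ATF4 members, 0 with all libraries, was 0 to 4, with 4 without pEGFP-N1 replicate 2 (8.81%), 2 without BX795 plus pEGFP-N1 replicate 1 (6.48%) and 1 without BX795 plus pEGFP-N1 replicate 3 (7.27%). The spread in that fit is shared with the transfected groups, which hold the libraries that disagree with their labels. With only the 6 libraries compared, 19 members passed, namely 10 lower in the ER chaperone branch, 4 lower and 2 higher in the ATF4 branch, and 2 lower and 1 higher in the heat shock branch, where 7.97% of all tested genes were called lower and 12.7% higher. Nothing in the labels says that the libraries of a group came from separate cultures, so these p-values measure the spread between libraries, which may be technical, and in bulk RNA fewer cells of a kind and less RNA per cell cannot be told apart.

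Hspa5, the most abundant ER member, had FPKM values of 1466, 1465 and 1527 in mock, against 1143, 1111 and 1082 with BX795. The groups did not overlap, and the means of 1486 ± 35.4 and 1112 ± 30.5 (SD, n = 3) left BX795 at 74.8% of mock. The log2 difference was -0.42 ± 0.12 (SE), with an adjusted p of 0.232 by limma over 12 libraries and 0.000299 over the 6 compared. In pEGFP-N1 it was 1399, 995 and 1441, and in BX795 plus pEGFP-N1 1331, 1158 and 1070.4, so that all 9 treated libraries lay below mock. Manf encodes an ER-resident protein that is secreted under stress and protects cells. It read 171, 176 and 163 in mock against 117, 130.1 and 125 with BX795. Its log2 difference was -0.45 ± 0.10, with an adjusted p of 0.137 with 12 libraries, the smallest of any member in that comparison, and 0.000617 with 6. Transfected libraries were at 148, 128 and 154 without the inhibitor and 153, 129 and 115 with it, again all below mock.

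Dnajc3 encodes the co-chaperone p58IPK, which also restrains PERK. It stood at 20.2, 20.2 and 21.3 in mock, 14.2, 16.2 and 16.1 with BX795, 18.0, 14.7 and 18.1 with pEGFP-N1, and 17.1, 14.3 and 17.1 with both. The highest treated library, at 18.1, was below the lowest mock library, at 20.2, and BX795 differed from mock by -0.39 ± 0.09 on the log2 scale (adjusted p = 0.167 with 12 libraries in limma, 0.00317 with 6). Creld2, an ER-resident protein induced by ER stress, was at 164, 170.4 and 169.7 in mock and 119.8, 128 and 122.7 with BX795, with pEGFP-N1 at 154, 119 and 152 and with both at 153, 134 and 98.4 (adjusted p = 0.000234 for BX795 against mock with 6 libraries, limma). The BX795 libraries were also below mock for Herpud1, which brings the degradation machinery together at the ER membrane, at 57.1, 62.0 and 52.9 in mock and 39.4, 45.1 and 43.7 with BX795. Its log2 difference was -0.41 ± 0.12, with an adjusted p of 0.219 with 12 libraries and 0.00447 with 6. In transfected cells Herpud1 overlapped mock, at 54.0, 42.9 and 54.9 with pEGFP-N1 and 52.9, 44.2 and 40.0 with both. Sdf2l1, a partner of ER chaperone complexes, was at 111, 119 and 115 in mock, 80.9, 83.9 and 84.8 with BX795, 110.3, 88.4 and 109 with pEGFP-N1, and 114, 88.4 and 55.9 with both. BX795 against mock gave the widest log2 difference of the branch, -0.46, with an adjusted p of 0.000222 with 6 libraries in limma, and BX795 plus pEGFP-N1 replicate 3 was the lowest of all 12. With 12 libraries neither Sdf2l1 nor Creld2 was called, the smallest adjusted p of the branch being 0.1365 in limma.

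Xbp1 encodes the transcription factor that IRE1 activates by splicing, and gene-level values do not separate the spliced form. It was at 71.1, 71.4 and 70.3 in mock and 56.1, 65.3 and 62.9 with BX795, a difference of -0.21 ± 0.07 with an adjusted p of 0.266 with 12 libraries and 0.0341 with 6. The pEGFP-N1 libraries were at 65.4, 63.4 and 65.8 and those with both at 66.4, 58.5 and 61.5, all below mock. The disulfide isomerases were tighter. Pdia4 was at 311, 316 and 309.9 in mock, 265, 277 and 273 with BX795, 284, 256 and 288 with pEGFP-N1, and 275, 264 and 258 with both. Pdia6 was at 595, 594 and 595 in mock, 524, 559 and 565 with BX795, 559, 553 and 541 with pEGFP-N1, and 541, 527 and 501 with both. For each of these, every treated library was below every mock library. Canx, the membrane-bound lectin chaperone calnexin, showed the same with smaller steps, at 277, 278 and 286 in mock, 267, 266 and 268 with BX795, 264, 247 and 267 with pEGFP-N1, and 256, 258 and 252 with both. Hsp90b1, the HSP90 of the ER, was at 1209, 1143 and 1183 in mock, 1019.9, 1036 and 1011 with BX795, 1062, 953 and 1085 with pEGFP-N1, and 1019, 1003 and 1142 with both. Calr, the soluble lectin chaperone, was at 1019, 1022 and 992 in mock, 909.6, 939 and 929.1 with BX795, 925, 921 and 947 with pEGFP-N1, and 978, 915 and 942 with both. They were at 86.8% and 91.6% of mock with BX795, with adjusted p-values of 0.00824 and 0.0419 with 6 libraries in limma, and neither was called with 12.

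The remaining ER members were less uniform. Edem1, which recognises mannose-trimmed misfolded glycoproteins, was at 97.5% of mock with BX795. Dnajb9, the co-chaperone ERdj4 that keeps IRE1 inactive, was at 86.6% with BX795 and at 106% in BX795 plus pEGFP-N1, where replicate 3 was the highest of all libraries at 31.3. Syvn1, the ubiquitin ligase HRD1, was at 89.1% of mock with BX795 and its libraries overlapped mock. For BX795 against mock the median log2 difference of the ER branch was -0.19 over the 8 members with the ER stress response element and -0.21 over the 6 without it, and that of the ATF4 branch was -0.23 over the 5 tested members with the C/EBP-ATF element and -0.08 over the 9 without it, values that are given as a description.

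**Figure D2:**
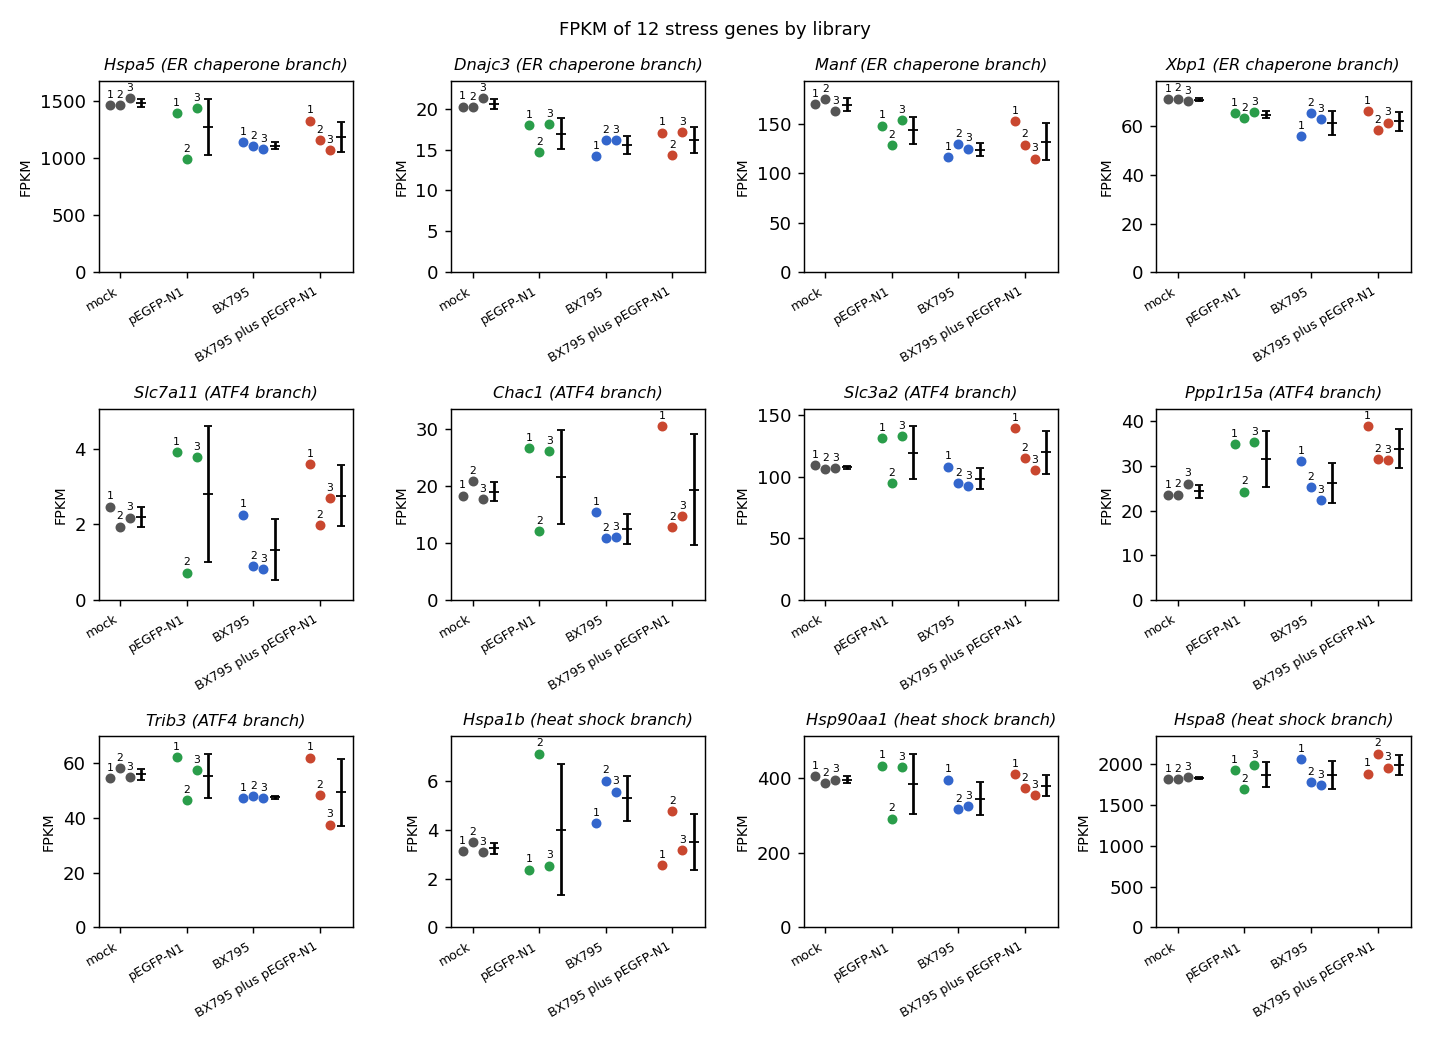
FPKM of 12 members in every library, with points for replicates 1 to 3, coloured by group, and the group mean ± SD beside them. Hspa5, Dnajc3, Manf and Xbp1 have all 9 treated libraries below mock, whereas Slc7a11, Chac1 and Slc3a2 are spread within the transfected groups.

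The ATF4 branch holds several transcription factors. Atf4 itself, which is governed mainly by translation, was at 465, 457 and 458 in mock, 439, 438 and 429 with BX795, 476, 431 and 466 with pEGFP-N1, and 475, 455 and 389 with both. The BX795 libraries were all below mock, at 94.7% of its mean, and the adjusted p was 0.601 in limma. Ddit3, the death-promoting factor CHOP, was at 68.5, 74.8 and 70.3 in mock, 63.2, 66.6 and 67.2 with BX795, 83.1, 61.2 and 79.9 with pEGFP-N1, and 85.5, 76.2 and 80.6 with both. All 3 libraries with both were above all 3 with BX795 alone, a log2 difference of 0.29 ± 0.10 with an adjusted p of 0.604. Trib3, a pseudokinase induced by CHOP and ATF4, was at 54.6, 58.3 and 55.0 in mock and 47.3, 48.0 and 47.3 with BX795, a difference of -0.23 ± 0.15 with an adjusted p of 0.477 with 12 libraries and 0.00689 with the 6 compared. With plasmid it was spread, at 62.4, 46.7 and 57.5 with pEGFP-N1 and 62.1, 48.5 and 37.6 with both. Atf5, a relative of ATF4, was at 346, 392 and 398 with BX795 against 331, 334 and 337 in mock, 113% of mock and not overlapping, with an adjusted p of 0.0477 with 6 libraries in limma, and at 327, 419 and 306 with pEGFP-N1 and 344, 358 and 281 with both. With 12 libraries Atf5 was not called, the smallest adjusted p of the branch for BX795 against mock being 0.337 in limma. Atf3, below the filter, was at 0, 0.06 and 0 in mock, 0.06, 0.03 and 0.03 with BX795, 0.14, 0.03 and 0.06 with pEGFP-N1, and 0.06, 0.03 and 0.06 with both.

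Slc7a11 and Chac1 had the largest standard errors of all tested members, 0.36 and 0.32 on the log2 scale for a difference of 2 groups. Chac1 was at 18.3, 20.9 and 17.7 in mock, 15.4, 10.9 and 11.02 with BX795, 26.6, 12.1 and 26.1 with pEGFP-N1, and 30.5, 12.8 and 14.7 with both. BX795 alone was below mock in every library, by -0.58 ± 0.32 on the log2 scale (adjusted p = 0.423 with 12 libraries, 0.0114 with 6, limma). Slc3a2, the heavy chain of amino acid exchangers, was at 109, 107 and 107 in mock, 108, 94.8 and 92.2 with BX795, 131, 94.8 and 133 with pEGFP-N1, and 139.6, 115 and 105 with both. Slc7a5, a light chain that pairs with it, read 52.7, 54.5 and 53.6 in mock, 50.3, 40.8 and 44.0 with BX795, 62.9, 42.7 and 63.8 with pEGFP-N1, and 66.2, 50.3 and 52.5 with both. With BX795 it was at 84% of mock, with an adjusted p of 0.0331 with 6 libraries in limma, and it was not called with 12. Slc7a11, the light chain of the cystine importer, was at 2.47, 1.94 and 2.18 in mock and 3.91, 0.72 and 3.77 with pEGFP-N1. Slc7a5, Slc7a11, Atf5, Sesn2, Creld2, Sdf2l1, Hsp90b1, Calr and Hsp90aa1 were chosen after their values were seen. For 8 of the 15 tested ATF4 members (53.3%; Chac1, Slc3a2, Slc7a5, Slc7a11, Atf4, Asns, Ppp1r15a and Sesn2) the 3 highest libraries were pEGFP-N1 replicates 1 and 3 and BX795 plus pEGFP-N1 replicate 1, the same 3 in which Isg15 lay between 129 and 152. The same 3 were highest for 3 of 9 heat shock members (33.3%; Hsp90aa1, Dnaja1 and Hspe1), for 0 of 15 ER members and for 10% of all tested genes, and the part of the interferon response in these values was not tested. Sesn2, a stress-induced regulator of mTORC1, stood in these libraries at 29.3, 30.98 and 30.7 against 22.1 to 25.8 in mock.

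Ppp1r15a encodes GADD34, the phosphatase subunit that reverses eIF2α phosphorylation. It was at 23.5, 23.6 and 26.0 in mock, 31.1, 25.2 and 22.4 with BX795, 34.8, 24.2 and 35.4 with pEGFP-N1, and 38.9, 31.5 and 31.3 with both. Over all transfected against all untransfected libraries its log2 difference was 0.35 ± 0.11, with the smallest unadjusted p of the branch in that comparison, and the adjusted p was 0.788. Without pEGFP-N1 replicate 2 and BX795 plus pEGFP-N1 replicate 1, Ppp1r15a (0.51 ± 0.11, adjusted p = 0.0249) and Slc3a2 (0.29 ± 0.07, adjusted p = 0.0480) were the 2 members called in limma for pEGFP-N1 against mock. Ddit4, the mTORC1 inhibitor REDD1, was with Atf5 one of the 2 tested members of the branch whose BX795 libraries lay above mock (23.6% of all tested genes did). Ddit4 was at 16.8, 15.5 and 14.5 with BX795 against 12.3, 11.9 and 13.1 in mock, and at 12.6, 15.5 and 10.9 with pEGFP-N1 and 12.2, 16.1 and 11.8 with both. Its log2 difference of 0.31 ± 0.13 had an adjusted p of 0.337 with 12 libraries and 0.0118 with 6. Psat1, of serine synthesis, was at 266, 265 and 258 in mock and 234, 239 and 248 with BX795, and with plasmid at 264, 241 and 269 without BX795 and 256, 239 and 229 with it. Its pathway partner Phgdh, which shares 55.8% of its 31-base words with other genes, and the asparagine synthetase Asns were at 95% and 94.9% of mock with BX795, and Vldlr, a lipoprotein receptor, at 99.4%.

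The heat shock branch showed no common direction. Hspa8, the constitutive HSP70 and the most abundant member of the set, was at 1815, 1815 and 1836 in mock, 2055, 1781 and 1743 with BX795, 1928, 1695 and 1981 with pEGFP-N1, and 1882, 2125 and 1953 with both. The libraries with both were all above mock, while those with BX795 or pEGFP-N1 alone lay on either side of it. Hspa1b, inducible HSP70, was low but higher with BX795 in all 3 libraries, at 3.15, 3.50 and 3.08 in mock and 4.28, 6.03 and 5.58 with BX795. The log2 difference was 0.56 ± 0.29 with an adjusted p of 0.401 with 12 libraries and 0.00785 with 6. It was 2.38, 7.14 and 2.54 with pEGFP-N1 and 2.55, 4.79 and 3.19 with both, so its highest value was in pEGFP-N1 replicate 2. Hspa1b shares 68% of the 31-base words of its transcripts with other genes, mostly Hspa1a, and the authors' handling of reads shared by near-identical genes may have split these values. Hspa1a, below the filter, was at 0.07, 0.13 and 0.07 in mock, 0.07, 0.20 and 0.14 with BX795, 0.19, 0.07 and 0.18 with pEGFP-N1, and 0.07, 0 and 0.07 with both.

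Dnaja1, an HSP40 co-chaperone, was at 80.5, 80.3 and 79.7 in mock, 74.1, 69.9 and 70.2 with BX795, 85.8, 66.3 and 83.8 with pEGFP-N1, and 81.4, 74.7 and 64.9 with both. BX795 was below mock throughout, by -0.16 ± 0.10, with an adjusted p of 0.461 with 12 libraries and 0.0216 with 6 in limma. Hspd1 was at 594, 569 and 619.6 in mock and 567, 485 and 501 with BX795, a difference of -0.20 ± 0.12 with an adjusted p of 0.454 and 0.0475 respectively, and at 639.6, 449 and 624 with pEGFP-N1 and 598, 556 and 518 with both. Its partner Hspe1 overlapped mock, at 286, 306 and 291 against 286, 262 and 248 with BX795, 328, 272 and 311 with pEGFP-N1, and 322, 296 and 240.4 with both. Hsp90ab1, the constitutive HSP90, stayed within 3% of its mock mean of 1799 in every group mean. It was at 1803, 1816 and 1778 in mock, 1747, 1749 and 1752 with BX795, 1837, 1754 and 1839 with pEGFP-N1, and, with both, 1853, 1764 and 1841, with the BX795 libraries all below mock. Hsp90aa1, its inducible relative, shared 51.4% of its words with other genes and was at 87.2% of mock with BX795, with libraries that overlapped. Hspd1 and Hspa8 shared 50.1% and 43.5% of their words with other genes. Bag3 and Dnajb1 lay at 106% and 96.5% of mock, and Hspb1 was listed at 0.07 in BX795 replicate 3 and BX795 plus pEGFP-N1 replicate 2 and at 0 in the other 10 libraries.

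The plasmid alone was compared with mock to ask whether transfection moves these genes. All 15 ER members were again lower (50.9% of all tested genes were), with a median of -0.18 against -0.0026 for all tested genes, and in 12 the pEGFP-N1 libraries lay below mock, which held for 7.41% of all tested genes. In the same comparison 11 of 15 ATF4 members were higher (49.1%) with a median of 0.05 and the heat shock median was -0.02. No member passed an adjusted p of 0.05, as did 0.0672% of all tested genes, and 6 ER members were lower at an unadjusted p under 0.05 (2.11% of all tested genes) and 1 ATF4 member, Ppp1r15a, was higher (2.57%). With 1 library left out these counts ran from 1 to 9 and from 0 to 5, with 1 ER member (7.21% of all tested genes lower) and 5 ATF4 members (5.67% higher) without pEGFP-N1 replicate 2 and 9 ER members without BX795 plus pEGFP-N1 replicate 3 (3.84%). Fewer ER members, 2 and 3, were also lower without mock replicate 1 or 2 (1.11% and 1.31%), and no ATF4 member was higher in 8 of these 12 fits. Without pEGFP-N1 replicate 2 and BX795 plus pEGFP-N1 replicate 1, which go against their labels, 2 ATF4 members passed as higher (2.2% of all tested genes) and 7 were higher at an unadjusted p under 0.05 (7.98%), while the ER members lower at that level numbered 3 (11.1%) and the heat shock median was 0.08. After the data were seen, a fit was also made without the 5 libraries whose highest correlation with their own group was under 0.5. These were pEGFP-N1 replicate 2, BX795 replicate 1 and the whole group of BX795 plus pEGFP-N1. Leaving out libraries unlike their group narrows the spread, so the p-values of this fit cannot be set beside the others. In it limma called 8 ATF4 members higher, 9 ER members lower, and 2 heat shock members higher and 1 lower (14.1% of all tested genes lower, 10.4% higher). Among those higher were Ppp1r15a (0.51, adjusted p = 0.000148), Slc3a2 (0.29, adjusted p = 9.27e-05) and Chac1 (0.46, adjusted p = 0.000454). Among the fibroblast markers all 9 tested also had a lower mean with pEGFP-N1 than mock, with a median log2 difference of -0.12 and 1 lower at an unadjusted p under 0.05, and their summed FPKM, with Thy1 near 0, was 6896 to 7134 in mock, 5971 to 7204 with pEGFP-N1, 6553 to 7389 with BX795 and 5741 to 6733 with both. With BX795 against mock 7 of the 9 were higher, with a median of 0.06, and over all treated groups 5 were higher and 4 lower, with a median of 0.01. The part of these differences in the results was not tested.

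Plasmid was also compared within cells given the inhibitor. BX795 plus pEGFP-N1 against BX795 gave a median of 0.13 for the ATF4 branch, 0.03 for the ER branch and 0.06 for the heat shock branch, with 3 ATF4 members (Ddit3, Slc7a5 and Ppp1r15a) whose libraries lay above BX795 throughout, against 4% of all tested genes. Again 0 members passed an adjusted p of 0.05 (0% of all tested genes), and 3 were higher at an unadjusted p under 0.05, Ddit3, Ppp1r15a and the ER member Dnajb9 (1.96%). With 1 library left out, 1 to 6 ATF4 members were higher at that level, with 6 without pEGFP-N1 replicate 2 (6.39%) or BX795 replicate 1 (4.4%) and 1 without BX795 replicate 2 or 3 or BX795 plus pEGFP-N1 replicate 1 (0.528%, 0.394% and 1.98%). Of the 9 tested fibroblast markers 8 had a lower mean with both than with BX795, with a median of -0.23 and 1 at an unadjusted p under 0.05, and the leukocyte marker Cd68 differed by 0.14, and their part in the result was not tested. Without BX795 plus pEGFP-N1 replicate 3 the ATF4 median was 0.20 and the heat shock median 0.11, and no member passed in this or any of the 8 comparisons. Averaged over inhibitor and vehicle, transfected libraries had 3 higher ATF4 members at an unadjusted p under 0.05 (3% of all tested genes) and 3 lower ER members, Pdia4, Canx and Pdia6 (3.12%), with 0 called after adjustment (0%). With 1 library left out the counts were 1 to 8 and 1 to 5, the highest without pEGFP-N1 replicate 2 (10.2% of all tested genes higher) and BX795 plus pEGFP-N1 replicate 3 (6.67% lower). In that comparison all 9 tested fibroblast markers had a lower mean, with a median of -0.17 and 3 at an unadjusted p under 0.05, and Cd68, the 1 tested leukocyte marker, was higher by 0.13 (limma, unadjusted p = 0.0434, adjusted p = 0.788), and their part in it was not tested.

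Averaged over plasmid, the 6 libraries with BX795 had 9 lower ER members at an unadjusted p under 0.05 (4.56% of all tested genes) and a median of -0.13, 1 lower ATF4 member (Psat1; 6 without pEGFP-N1 replicate 2, where 12% of all tested genes were lower, 5 without BX795 plus pEGFP-N1 replicate 1, where 10.1% were, and 0 without pEGFP-N1 replicate 1 or 3) and a median of -0.07, and a heat shock median of -0.03, with 0 called after adjustment (0%). The ATF4 median was -0.12 to -0.03 with 1 library left out, and -0.16 without both pEGFP-N1 replicate 2 and BX795 plus pEGFP-N1 replicate 1. Within transfected cells the comparison of BX795 plus pEGFP-N1 with pEGFP-N1 gave medians of -0.00068, -0.06 and -0.02 for the ATF4, ER and heat shock branches, with 0 called after adjustment (0%), 0 at an unadjusted p under 0.05 in limma (0.749% of all tested genes were higher and 0.845% lower) and 1, Pdia6, whose libraries did not overlap (1.41% of all tested genes). With 1 library left out, 4 ER and 4 ATF4 members were lower at an unadjusted p under 0.05 without BX795 plus pEGFP-N1 replicate 1 (7.36% of all tested genes), 2 and 2 without pEGFP-N1 replicate 2 (4.78%), and 0 in both branches in the other 10 fits. The interaction of plasmid and BX795 was positive for all 15 ER members (45.8% of all tested genes), with a median of 0.16, but the smallest adjusted p was 0.842 and 3 reached an unadjusted p under 0.05 (1.51%). That count was 0 to 6 with 1 library left out, with 0 without mock replicate 1 or pEGFP-N1 replicate 2 (0.768% and 1.17% of all tested genes higher), 1 without mock replicate 3, BX795 replicate 1 or 3, or BX795 plus pEGFP-N1 replicate 1, 5 without pEGFP-N1 replicate 3 (2.18%) and 6 without BX795 plus pEGFP-N1 replicate 3 (2%). The comparisons share libraries, the mock group among them, so their values stand side by side and are not separate support for each other.

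A comparison of all treated groups with mock was added after the values were seen. Its means and counts of libraries do not depend on which treated library is which, but its p-values come from the fit with 1 mean per group and do. In 10 of 15 ER members all 9 treated libraries lay below all 3 mock libraries (Hspa5, Hsp90b1, Pdia4, Pdia6, Calr, Canx, Dnajc3, Xbp1, Creld2 and Manf), against 2.23% of all tested genes. No member of the ATF4 or heat shock branch did so in either direction (1.93% of all tested genes lay above mock throughout). All 15 ER means were lower (46.1%). The ER median was -0.19, the ATF4 median 0.0051 and the heat shock median -0.05, and 12 ER members were lower at an unadjusted p under 0.05 (4.59%) and 1 ATF4 member, Ppp1r15a, higher (4.8%). None passed an adjusted p of 0.05 (0.259% of all tested genes did), and the smallest was 0.120 (Pdia4). Without BX795 plus pEGFP-N1 replicate 3 the ER median was -0.20 and 13 were lower at that level (6.24% of all tested genes), as were 13 without BX795 plus pEGFP-N1 replicate 1 (6.05%). Fewer were lower without a mock library, 8 without replicate 2 (2.8%) and 10 without replicate 1 (2.56%) or replicate 3 (2.8%), and no ATF4 member was higher in 6 of the 12 fits with 1 library left out. Without BX795 plus pEGFP-N1 replicate 1, 2 ATF4 members were lower.

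**Figure D3:**
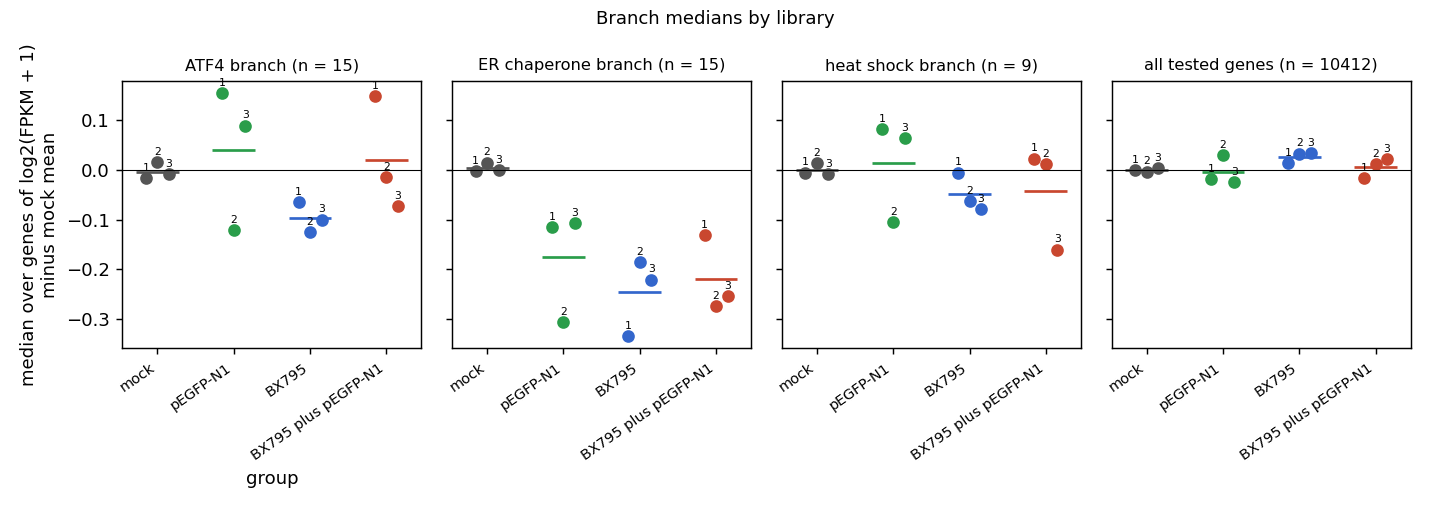
Median over the members of each branch, and over all tested genes, of log2(FPKM + 1) minus the mock mean, for each library by group, with a bar for the group mean. For the ER chaperone branch all 9 treated libraries are between -0.33 and -0.11, for the ATF4 branch they run from -0.13 to 0.15, and the all-gene medians run from -0.02 to 0.03.

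**Figure D4:**
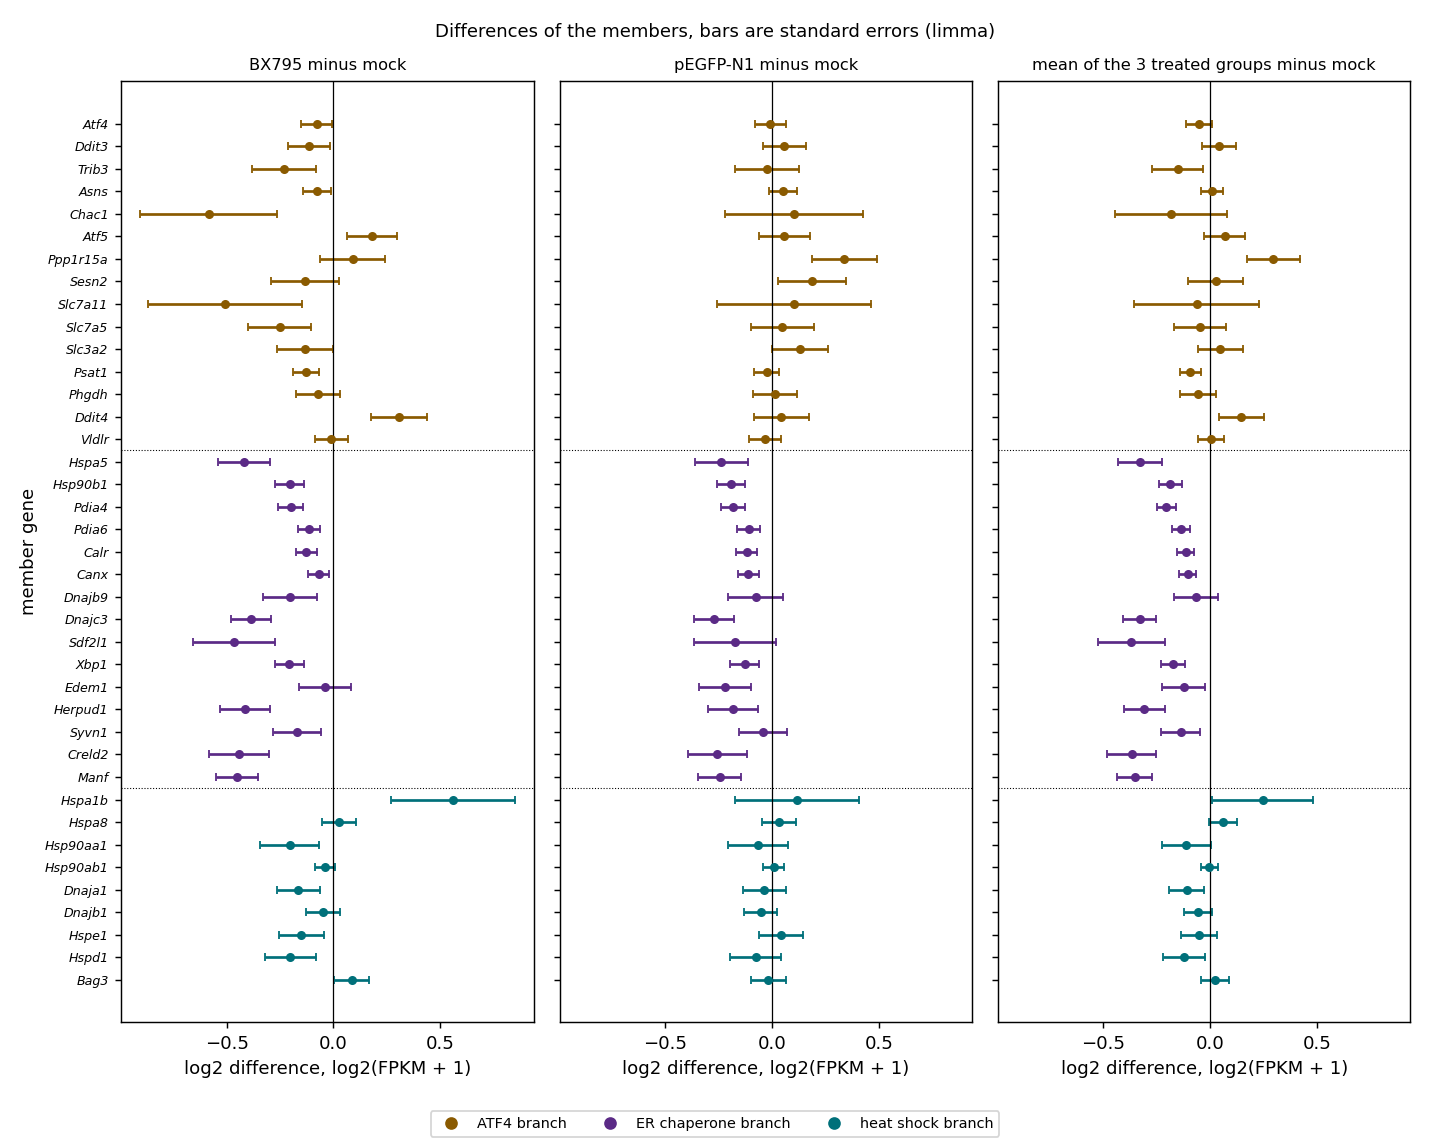
Log2 differences of the 39 tested members, with standard errors from limma, for BX795 minus mock, pEGFP-N1 minus mock and the mean of the 3 treated groups minus mock, coloured by branch. All 15 ER chaperone members lie left of 0 in each panel, whereas ATF4 and heat shock members lie on both sides.

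The 3 branches were also compared with the doubtful libraries left out. Without BX795 plus pEGFP-N1 replicate 3, limma called 0 members in each of the 8 comparisons, where 0.0576% of all tested genes were called lower and 0.0768% higher for BX795 against mock. In that fit 11 ER members were lower for BX795 against mock at an unadjusted p under 0.05 (7.27% of all tested genes) and 9 for pEGFP-N1 against mock (3.84%), and the ER medians were those given above, since neither comparison holds that library. Of those that hold it, BX795 plus pEGFP-N1 against pEGFP-N1 had medians of 0.024, -0.029 and 0.031 for the ATF4, ER and heat shock branches. The mean BX795 medians were -0.031, -0.13 and -0.021, and those of the interaction 0.090, 0.18 and 0.12. The heat shock median over all treated groups was -0.012, and the ER median of the mean plasmid difference was -0.044.

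Without pEGFP-N1 replicate 2 and BX795 plus pEGFP-N1 replicate 1, each transfected group kept 2 libraries and more members were called. For BX795 against mock they were 9 lower of the ER branch, 2 lower of the ATF4 branch and 1 higher of the heat shock branch (5.12% of all tested genes were called lower and 8.96% higher). For pEGFP-N1 against mock the 2 called ATF4 members stood beside 1.56% of all tested genes lower and 2.2% higher, and the ATF4 median was 0.11. For BX795 plus pEGFP-N1 against pEGFP-N1, 6 ATF4 members and 5 ER members were called lower, and 1 heat shock member each way (7.6% lower, 10.5% higher), with medians of -0.19, -0.13 and -0.03. Since libraries were left out by Isg15, this set pEGFP-N1 replicates 1 and 3, high in Isg15, against libraries low in it, the odd BX795 plus pEGFP-N1 replicate 3 among them. Both pEGFP-N1 libraries were among the 3 highest for 8 of 15 ATF4 members, so the lower ATF4 values partly follow from that choice. The choice also enters the other comparisons of transfected groups in that fit. For the mean plasmid difference 4 ATF4 members were called higher (2.3% lower, 2.05% higher). For the mean BX795 difference 8 ATF4, 9 ER and 4 heat shock members were called lower and 1 ATF4 and 1 heat shock member higher (13.9% lower, 20% higher). For all treated groups against mock 7 ER members were called lower and 1 ATF4 member higher (2.48% lower, 3.74% higher). The interaction medians became -0.09 for the ATF4 branch, 0.07 for the ER branch and -0.03 for the heat shock branch, from 0.05, 0.16 and 0.06 with all libraries, with no member called (1.18% of all tested genes lower, 0.0864% higher). For pEGFP-N1 against mock the ER median was -0.11 in that fit, from -0.18 with all libraries, and the medians for BX795 against mock stayed as given above, since that comparison holds neither library.

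Other genes of the same pathways, from lists written with the members, were looked at beside them. Of 37 tested further unfolded protein response genes, 10 were lower with BX795 than mock at an unadjusted p under 0.05 and none higher, of 31 further ATF4 pathway genes 1 was lower and 2 higher, and of 36 further heat shock and cytosolic chaperone genes 2 were lower and 2 higher, where 5.4% of all tested genes were lower and 8.45% higher. In the fit of the 6 libraries compared, 12 of the 37 were called lower and 2 higher, 4 of the 31 lower and 2 higher, and 7 of the 36 lower, where 7.97% of all tested genes were called lower and 12.7% higher. Atf6, the membrane-bound factor that acts on the element shown above, was at 12.1, 11.3 and 12.2 in mock and 7.88, 8.08 and 7.85 with BX795, and at 9.59, 7.90 and 10.5 with pEGFP-N1 and 9.90, 7.99 and 8.62 with both. BX795 differed from mock by -0.52 ± 0.10 on the log2 scale, with an adjusted p of 0.0954 by limma. Hyou1, an ER chaperone of the HSP110 family, was at 120.1, 121 and 117 in mock and 84.7, 83.5 and 81.4 with BX795, with pEGFP-N1 at 112, 80.6 and 115 and with both at 113, 85.1 and 81.3. Gdf15, a secreted stress cytokine under ATF4 and CHOP, was at 23.4, 24.9 and 21.6 in mock, 41.3, 31.7 and 31.1 with BX795, 32.5, 34.0 and 30.7 with pEGFP-N1, and 34.6, 43.3 and 34.4 with both. All 9 treated libraries were above mock, and its difference over all treated groups of 0.55 ± 0.10 passed with an adjusted p of 0.0414 in limma. That comparison was added after the values were seen, and the call was lost under 8 of the alternatives. The difference itself was 0.50 to 0.60 with 1 library left out. Cebpb, a partner of ATF4 on the C/EBP-ATF element, was at 107.5, 117 and 110.2 in mock and 169, 162 and 162 with BX795, and at 129.6, 179.8 and 119 with pEGFP-N1 and 129.9, 172 and 115 with both. Among heat shock genes, Serpinh1, the collagen chaperone HSP47, was at 379, 380.2 and 381 in mock and 347, 322 and 324 with BX795, and at 382, 320.4 and 372 with pEGFP-N1 and 365, 351 and 307 with both. Hspa2 was at 0.76, 1.12 and 0.88 in mock, 1.14, 1.54 and 1.79 with BX795, 0.64, 1.34 and 0.71 with pEGFP-N1, and 0.84, 0.93 and 1 with both.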

How the data were processed

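Total RNA of 12 L929 libraries in 4 groups of 3 was sequenced on a BGISEQ-500. Per the submitters' processing notes, reads were aligned with Bowtie2 2.2.5 and quantified with RSEM on mouse GRCm38.p5, and the authors deposited 1 table of FPKM values for 17571 genes. FPKM keeps no read total, so depth and counting error are unknown, and no count test was run.

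Entrez identifiers were matched to RefSeq symbols (17450 matched, 121 did not). Values were analysed as log2(FPKM + 1), which understates differences of low genes. The 10412 genes with 3 or more libraries at an FPKM of 1 or higher entered limma 3.58.1 in R 4.3.3, with 1 mean per group over all 12 libraries, a trend in the prior variance, and Benjamini-Hochberg adjustment over all tested genes. A call needed an adjusted p under 0.05. There were 7 designed comparisons, and that of all treated groups with mock was added later. The fit was checked on simulated data. Python 3.11.15, numpy 2.4.6 and pandas 2.3.3 were used, with matplotlib 3.10.9 for plots.

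The members and lists were chosen with earlier results of these data known. Values in every library are given for genes called in any comparison of the fit of all 12 libraries, the 3 tested members per branch with the largest moderated statistic for BX795 against mock and for plasmid, the most abundant member per branch, Atf4, Ddit3, Trib3, Xbp1, Hspa5, Hspa1a, Hspa1b and members under the filter, and from the other lists for genes called and the 2 with the largest statistic for BX795 against mock. Other named genes were chosen after their values were seen. Promoter windows are from RefSeq (GRCm38.p6) and gene coordinates from GENCODE on GRCm38. Words of 31 bases shared between transcripts mark genes whose reads could be split.

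Alternatives were a pseudocount of 0.1, no filter or a mean FPKM of at least 5, rescaling to TPM, the 75th percentile or quantiles, no trend, array weights, a fit of the compared groups alone, a block for the replicate number, leaving out single libraries, the 2 transfected libraries whose Isg15 went against their labels left out, and the study's thresholds (FDR of at most 0.001 and an absolute log2 change of at least 2). Leaving out the 5 libraries whose highest correlation with their own group was under 0.5 was added after seeing the data.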

Additional observations from a re-analysis of the deposited data

How the results depend on the processing

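The number of members called, 0 in each of the 8 comparisons, depended on how the transfected libraries entered the fit. With array weights it was 27 for BX795 against mock (43.5% of all tested genes were called), 15 for pEGFP-N1 against mock (20%), 11 for BX795 plus pEGFP-N1 against BX795 (14.4%), 25 against pEGFP-N1 (37.3%), 24 for the mean plasmid difference (34.1%), 32 for the mean BX795 difference (56.1%) and 18 for all treated groups against mock (21.5%). With only the groups compared it was 19 for BX795 against mock (20.6%). Without pEGFP-N1 replicate 2 and BX795 plus pEGFP-N1 replicate 1 it was 12 for BX795 (14.1%) and 2 for pEGFP-N1 against mock (3.76%), 13 for BX795 plus pEGFP-N1 against pEGFP-N1 (18.1%), 4 for mean plasmid (4.34%), 23 for mean BX795 (33.8%) and 8 for all treated (6.21%), and without the 5 libraries unlike their group, chosen after seeing the data, 28 for BX795 (42.4%) and 20 for pEGFP-N1 (24.4%) against mock. Leaving out 1 library gave 0 to 3 for BX795 against mock (1.43% of all tested genes at the highest), 0 to 4 for the mean plasmid difference (3.48%), 0 to 7 for the mean BX795 difference (7.89%) and 0 to 1 for all treated groups (1.32%), the highest without pEGFP-N1 replicate 2 except in the last (BX795 plus pEGFP-N1 replicate 1). The heat shock median for pEGFP-N1 against mock was 0.073 with array weights, 0.081 without those 2 libraries or those 5, and -0.031 to 0.081 with 1 left out, and that for BX795 plus pEGFP-N1 against BX795 was 0.14 with array weights. For BX795 plus pEGFP-N1 against pEGFP-N1, array weights gave medians of -0.12 (ATF4) and -0.15 (ER), and the ATF4 median was -0.19 without the 2 libraries and -0.15 to 0.032 with 1 left out. The interaction medians without the 2 libraries were -0.089 (ATF4), 0.071 (ER) and -0.034 (heat shock). Of 24 branch medians, 9 lay on the other side of 0 under at least 1 alternative, in 37 of 546 values: ATF4 for pEGFP-N1 and all treated against mock, BX795 plus pEGFP-N1 against pEGFP-N1 and the interaction, heat shock for pEGFP-N1 against mock, BX795 plus pEGFP-N1 against pEGFP-N1, mean plasmid and the interaction, and ER for BX795 plus pEGFP-N1 against BX795. The Hspa1b difference for pEGFP-N1 against mock went from 0.12 to -0.29 without the 5 libraries (limma adjusted p = 0.0162). The causes were not tested.

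With the replicate number as a block, 0 members were called, a count given here without the share of all tested genes and so not particular to the members. Same-numbered libraries correlated at 0.116 on average and other pairs at -0.0654, and not every pair was above 0.1, so the numbers were not taken as a pairing.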
